A study of Mus musculus with 26 samples.

Results

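The proteasome genes of the mouse were followed across 8 sorted populations of early blood cells on 26 Affymetrix arrays. Members were all genes whose symbol starts with Psma, Psmb, Psmc, Psmd, Psme, Psmf or Psmg and that had a probe set (a group of short probes for 1 transcript) annotated to exactly 1 symbol. Where a gene had several such probe sets, the brightest on average over all arrays was used. This gave 49 of the 18194 genes measured, from 103 probe sets, and 22 of the 49 had a single probe set. Psme2, the partner of Psme1 in an interferon-inducible activator, was hit only by a probe set that also names other genes and was not analysed here.

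Every array held RNA of male C57/Bl6 mice aged 2 months, per the labels, which name no mutation or treatment in any group. Bone marrow gave 5 of the populations, which were MPPFL- (5 arrays), MPPFL+ (3), CMP (3), GMP (3) and CLP (3). The other populations were thymocytes, named DN1, DN2 and DN3 (3 arrays each). The names have usual meanings in this field: MPP cells are multipotent, CMP and GMP are progenitors of myeloid cells (the latter of granulocytes and macrophages), CLP are progenitors of lymphocytes, and the DN stages follow each other among CD4- CD8- thymocytes. The labels do not say whether arrays of a population came from separate animals or from pooled mice, so the p-values measure the spread between these arrays, which may be technical. Levels are deposited log2 values, on which a difference of 1 is a 2-fold change.

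The proteasome is the barrel-shaped protease that degrades proteins tagged with ubiquitin. Its 20S core has outer rings of alpha subunits and inner rings of beta subunits, and Psmb5, Psmb6 and Psmb7 carry the proteolytic sites. The 19S particle on its ends holds 6 ATPases (Psmc genes), which unfold substrates and open the gate, and non-ATPase subunits (Psmd genes), which bind and strip ubiquitin. In many blood cells, and after interferon, Psmb8, Psmb9 and Psmb10 replace Psmb5, Psmb6 and Psmb7 in newly built cores to form the immunoproteasome, which shapes the peptides shown on MHC class I. Psmb11 takes the place of Psmb5 in cortical epithelium of the thymus.

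The genes around which the exchange of catalytic subunits turns have start regions with different letters. The 250 bases before each annotated start are shown 5′ to 3′ on the gene's own strand, from RefSeq on GRCm38.p6. They show where the letters match short patterns of response elements. Capitals mark matches, on either strand, to 3 short patterns: TGACNNNGC, the core of the antioxidant response element used by Nfe2-like factors, TTCNNNGAA, the gamma-activated site of STAT factors, and GGGNNNNNCC, a loose form of the NF-kB site.
Psmb5 (chr14:54617996-54618245, minus strand): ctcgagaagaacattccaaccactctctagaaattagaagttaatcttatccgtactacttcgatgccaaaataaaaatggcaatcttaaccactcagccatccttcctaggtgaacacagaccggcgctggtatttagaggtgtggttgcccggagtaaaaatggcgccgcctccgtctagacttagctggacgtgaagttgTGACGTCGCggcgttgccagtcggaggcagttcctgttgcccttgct
Psmb8 (chr17:34197945-34198194, plus strand): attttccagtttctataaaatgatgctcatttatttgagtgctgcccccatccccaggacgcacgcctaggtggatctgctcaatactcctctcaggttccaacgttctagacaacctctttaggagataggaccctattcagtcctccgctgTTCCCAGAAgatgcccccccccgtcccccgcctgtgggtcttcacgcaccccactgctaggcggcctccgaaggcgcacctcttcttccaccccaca
Psmb6 (chr11:70525107-70525356, plus strand): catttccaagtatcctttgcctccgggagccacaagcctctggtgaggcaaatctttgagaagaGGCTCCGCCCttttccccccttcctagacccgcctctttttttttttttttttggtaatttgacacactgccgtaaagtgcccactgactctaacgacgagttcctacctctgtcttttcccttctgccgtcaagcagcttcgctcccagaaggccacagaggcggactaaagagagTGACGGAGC
Psmb10 (chr8:105938393-105938642, minus strand): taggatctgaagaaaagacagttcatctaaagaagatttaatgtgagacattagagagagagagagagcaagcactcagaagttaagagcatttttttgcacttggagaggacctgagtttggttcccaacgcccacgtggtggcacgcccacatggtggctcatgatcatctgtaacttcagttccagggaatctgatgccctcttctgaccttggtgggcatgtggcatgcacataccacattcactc
Psmb9 shares its start region with Tap1, a peptide transporter gene on the other strand, and only the 225 bases between both starts are shown:
Psmb9 (chr17:34187331-34187555, minus strand): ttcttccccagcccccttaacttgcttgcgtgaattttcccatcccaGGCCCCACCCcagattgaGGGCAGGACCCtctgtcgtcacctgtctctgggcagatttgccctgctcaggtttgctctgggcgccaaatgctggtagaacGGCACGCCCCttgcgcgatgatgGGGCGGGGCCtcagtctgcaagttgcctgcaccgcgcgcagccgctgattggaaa

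Among these windows, the antioxidant core was found in Psmb5 and Psmb6, with its first base 47 and 9 bases before the start. The gamma-activated pattern was found in Psmb8, 97 bases before the start. The NF-kB pattern was found once in Psmb6 and 5 times in Psmb9, where a pair of matches on opposite strands overlap. Psmb10 had no match to these patterns in this window, which says only that these letters are not there, and no window was found for Psmb7. Windows from 250 bases before to 50 bases after the start were at hand for 41 of the 49 members and 8 had none. The antioxidant core was in 6 of the 41 (14.6%) against 14.0% of 27025 genes, the gamma-activated pattern in 3 (7.32%) against 9.55%, and the NF-kB pattern in 23 (56.1%) against 53.5%. An interferon response pattern, GAAANNGAAA, was in 5 (12.2%) against 3.99% of all genes. These were Psmb3, Psmd4, Psmd9, Psme1 and Psmg4, and none of Psmb8, Psmb9 and Psmb10 had it in its window. A match is a run of letters and was not tested as a binding site.

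The arrays differed in ways that the labels do not describe. The mean of 27 spike-in probe sets, for bacterial control RNAs, lay between 3.63 and 5.09 on the MPPFL-, MPPFL+ and CLP arrays, between 7.22 and 11.68 on CMP, GMP and DN3 arrays, and between 2.46 and 2.56 on DN1 and DN2 arrays. Spike-in level and population therefore cannot be told apart in the comparisons of CMP with MPPFL+, GMP with CMP, CLP with GMP, DN1 with CLP and DN3 with DN2. The mean signal of 18S ribosomal probe sets was 9.16 in DN1 and 8.01 in DN2, and 11.99 to 13.01 in the other populations. The gap between 3′ and 5′ probe sets of actin and Gapdh, which widens as RNA breaks, also differed. By mean it was smallest in GMP (1.72 ± 0.05, SD, n = 3) and largest in MPPFL- (3.68 ± 0.34, SD, n = 5). In DN1 it ran from 1.64 on replicate 3 to 4.18 on replicate 2. Arrays of MPPFL- (3.13 to 3.95) and MPPFL+ (2.86 to 2.99) did not overlap in this gap. CMP arrays (2.03 to 2.41) overlapped neither MPPFL+ nor GMP arrays (1.66 to 1.76), and CLP arrays (2.78 to 3.16) did not overlap GMP. In these 4 comparisons the gap and population cannot be told apart either. Xist, a transcript of female cells, was higher on 4 arrays labelled male than on all others. It read 12.21 and 13.59 on DN1 replicates 1 and 3, 12.99 on DN2 replicate 2 and only 6.30 on DN2 replicate 3. The highest other array, MPPFL- replicate 1, read 4.45. These 4 are called the arrays with Xist signal below. Il2ra, the CD25 antigen of DN2 and DN3 cells, was at 13.14 and 13.16 there, 7.37 in DN1 and 2.17 to 2.19 in bone marrow. Flt3 and Mpo followed the population names less sharply. Flt3 was at 13.31 in MPPFL+ and at 10.995 in MPPFL-, near the 10.765 of CMP. Mpo was highest in GMP (16.11) but still at 14.15 in CLP and 13.59 in DN1. In pooled cells, fewer cells of a type and less RNA per cell cannot be told apart.

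Proteasome genes were bright and moved over a narrow range. Of the 49, 48 were at least 1 unit above the floor of the arrays (2.17) on average, and 44 were above 8 on every array. The exception was Psmb11. Over the 48, the gap between the highest and the lowest population mean had a median of 1.06 units, against 1.77 for the 10367 genes that also cleared the floor. It was under 1 unit for 22 members (45.8%) and for 17.6% of those genes, and over 2 units for 6 members (12.5%) and for 42.4% of those genes. Those genes were not matched to the members in brightness. By mean level the median member was at percentile 92.1 of all genes, and the part of brightness in the gap was not tested. The widest gap among members, 2.58 units, was that of Psma8, a testis-enriched alpha subunit, and the narrowest, 0.46 units, that of the non-ATPase subunit Psmd11. Most members still varied across the series. In limma's moderated F test over the 8 populations, 43 of 49 members passed at an adjusted p under 0.05, where 58.1% of all genes and 90.7% of the genes clear of the floor passed. The 6 that did not were Psma7, Psmd4, Psmd8, Psmd11, Psmg1 and Psmg2. With arrays of like spike-in level as a random block, 26 members passed.

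**Figure D1:**
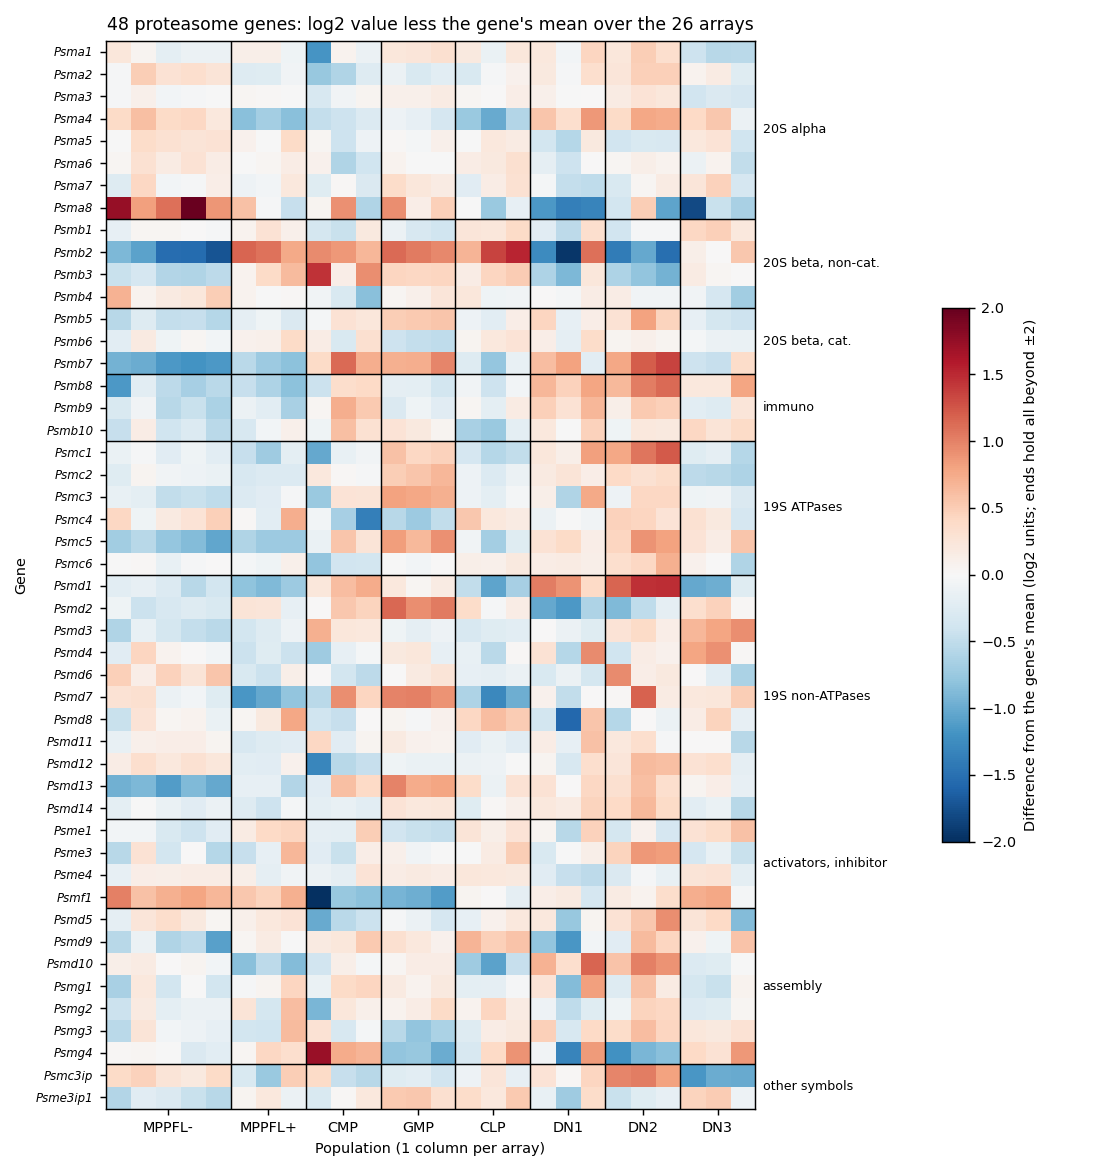
Level of each of 48 proteasome genes on each of the 26 arrays, as log2 less that gene's own mean over all arrays, with genes in rows grouped by role and arrays in columns grouped by population; colours end at 2 units either way and Psmb11, near the floor, is left out. Most rows stay pale, and single rows such as Psma8, Psmb2 and Psmf1 hold the strongest colours. The ATPase rows are on average warmest in DN2 and GMP. In GMP, however, Psmc4 (12.79) is below its own mean (13.38) and Psmc6 (12.64) is near its own (12.66).

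DN2 thymocytes, the stage at which cells commit to the T lineage, stood out as the population in which proteasome genes most often peaked. Of the 48 members clear of the floor, 19 (39.6%) had their highest mean in DN2, where 11.6% of all genes clear of the floor did. Of these 19, 6 belong to the core (Psma1, Psma2, Psma3, Psma4, Psmb7 and Psmb8) and 7 to the 19S particle (Psmc1, Psmc4, Psmc6, Psmd1, Psmd6, Psmd12 and Psmd14). The others are the assembly chaperones Psmd5, Psmd10, Psmg2 and Psmg3, the activator Psme3, and Psmc3ip, which is no proteasome part. GMP came next with 9 members (18.8%, against 20.8% of all genes clear of the floor), among them Psmb5, Psmc2, Psmc3, Psmc5, Psmd2, Psmd7 and Psmd13. The mean over all 49 members was 11.68 ± 0.14 in DN2 (SD, n = 3) and 11.57 ± 0.04 in GMP (n = 3), and lay between 11.34 and 11.44 in the other populations. The single arrays of DN1 ranged from 11.16 to 11.69, and so overlapped DN2, whose arrays ranged from 11.52 to 11.81. Spike-in level was lower on DN1 and DN2 arrays (2.46 to 2.56) than on all others, and mean ribosomal signal was lowest in DN2. A DN2 peak over bone marrow or DN3 therefore cannot be told apart from these array differences. Their part in the peaks was not tested. The genes clear of the floor were not matched to the members in brightness here either. With DN2 replicate 2 left out, 16 members peaked in DN2, and without the arrays with Xist signal, which leaves 1 array of DN1 and 1 of DN2, 15 did (31.2%, against 10.5% of genes).

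Single steps changed between 0 and 23 of the 49 members. Comparisons were made between populations that neighbour each other in the usual scheme of blood development, with limma fitted on all genes and Benjamini-Hochberg adjustment over all genes. Neighbouring comparisons share the arrays of 1 population, so their counts are not independent. From MPPFL- to MPPFL+, 3 members rose (10.6% of all genes rose) and 7 fell (5.25% of all genes fell). In CMP relative to MPPFL+, 10 members were higher and 5 lower, against 5.39% and 18.7% of all genes. In GMP relative to CMP, 12 were higher and 4 lower, against 13.8% and 7.63%. For CLP relative to MPPFL+, limma called no member, with 2.53% of all genes higher and 4.01% lower. There 2 members had an unadjusted p under 0.05, against 13.6% of all genes. CLP had 6 members above and 13 below GMP, against 16.7% and 11.6% of all genes. From CLP to DN1, 10 rose and 7 fell, against 8.03% and 18.8%. Without DN1 replicate 3 it was 9 and 11, and without the arrays with Xist signal 5 and 12, so the balance of rises and falls in that step depends on single DN1 arrays. From DN1 to DN2, 2 rose and none fell, against 3.99% and 4.12%, while 17 members, all higher in DN2, had an unadjusted p under 0.05. From DN2 to DN3, 9 rose and 14 fell, against 16.7% and 14.4%. Genes at the floor were seldom called, and 48 of the members were clear of it. Among the 10367 genes clear of the floor the shares higher and lower were 17.4% and 8.29% for MPPFL+ with MPPFL-, 7.85% and 31.1% for CMP with MPPFL+, 21.0% and 12.2% for GMP with CMP, 3.68% and 6.20% for CLP with MPPFL+, 27.9% and 16.6% for CLP with GMP, 12.8% and 31.6% for DN1 with CLP, 6.06% and 6.54% for DN2 with DN1, and 26.7% and 23.4% for DN3 with DN2.

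The median change over the members lay between -0.36 and 0.24 units. It was 0.02 units for MPPFL+ against MPPFL- (0.11 for all genes clear of the floor), 0.04 for CMP (-0.34), 0.24 for GMP against CMP (0.14), 0.07 for CLP against MPPFL+ (0.00), -0.06 for CLP against GMP (0.16), 0.03 for DN1 (-0.27), 0.22 for DN2 (0.03) and -0.36 for DN3 (0.03). Quantile normalization moved the median of all genes clear of the floor in the CMP comparison by 0.21 units, to -0.12, and with it 14 members were higher and 4 lower there. In GMP relative to CMP that scaling left 2 members higher and 5 lower, so the higher share among called members went from 75.0% to 28.6%, and in MPPFL+ relative to MPPFL- it went from 30.0% to 40.0%. With arrays of like spike-in level as a random block, the calls in the order above came to 12, 6, 1, 0, 3, 4, 6 and 12 members.

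**Figure D2:**
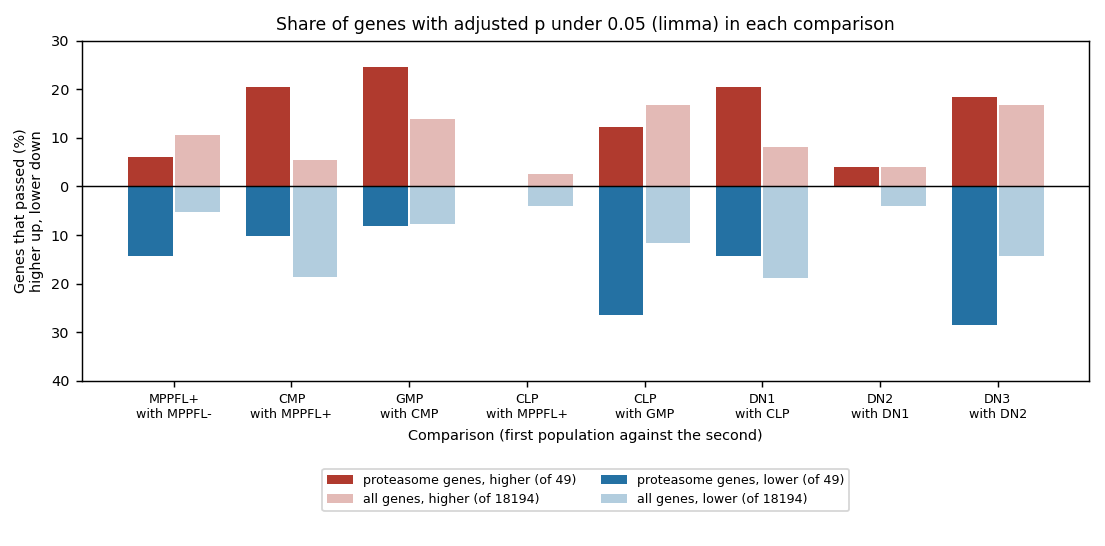
Percent of the 49 proteasome genes and of all 18194 genes that passed limma's test at an adjusted p under 0.05 in each of 8 comparisons, with genes higher in the first-named population above the line and lower ones below it. Upward, the proteasome bar is longest for GMP with CMP (12 members higher), and downward for DN3 with DN2 (14 members lower). Proteasome bars are absent for CLP with MPPFL+.

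Across the 8 comparisons there were 102 calls of a member. Of these, 53 also passed with each array of the compared populations left out in turn, and 20 passed under every alternative tried. Those 20 calls belong to Psma4, Psmb2, Psmb5, Psmb7, Psmc1, Psmc2, Psmc5, Psmd1, Psmd2, Psmd7, Psmd10, Psmd14 and Psmc3ip. In total 42 members passed in at least 1 comparison and 8 passed in 4 or more. Psmc2 passed in 6, but its fall of 0.19 from MPPFL- to MPPFL+ was lost in 15 of 17 alternatives, and without that call it passed in 5, as Psmd10 did. Psma5, Psma7, Psmd4, Psmd11, Psmg1, Psmg2 and Psmg3 passed in none.

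The random block of like spike-in level ended most calls in the comparisons where spike-in level and population move together. It puts MPPFL-, MPPFL+ and CLP arrays together, DN1 with DN2, and GMP alone, so by its layout it weakens comparisons between such groups. Whether a lost call came from spike-in level cannot be told from this block. Under it 6 of 15 calls remained in CMP with MPPFL+ (Psmb7, Psmd1, Psmc5, Psmf1, Psmc2 and Psmd3), 1 of 16 in GMP with CMP (Psmc2), 3 of 19 in CLP with GMP (Psmd7, Psmc5 and Psmc2) and 4 of 17 in DN1 with CLP (Psmd1, Psmd10, Psma4 and Psmd2). In DN3 with DN2, 12 of 23 remained, which were the falls of Psmb5, Psmb7, Psmd1, Psmc1, Psmc2, Psmc6, Psma1, Psma3, Psmd10, Psmd14 and Psmc3ip and the rise of Psmd3. Every other call of a member given below for these comparisons was lost under that block. The number that passed among all genes fell under it as well. It went from 4378 to 1566 in CMP with MPPFL+, 3892 to 1516 in GMP with CMP and 5153 to 2317 in CLP with GMP. In DN1 with CLP it went from 4890 to 1787, and in DN3 with DN2 from 5652 to 3002. A fit to the compared populations alone kept 2 of 15 calls in CMP with MPPFL+ (Psmb7 and Psmd1), 3 of 16 in GMP with CMP (Psmg4, Psmc2 and Psmd14) and 7 of 17 in DN1 with CLP (Psmb8, Psmd1, Psmd10, Psma4, Psmd2, Psmc2 and Psme4). It kept none of 2 in DN2 with DN1, 18 of 19 in CLP with GMP and 14 of 23 in DN3 with DN2. With the 3′ to 5′ gap as a covariate, 6 of 10 calls remained in MPPFL+ with MPPFL-, 12 of 15 in CMP with MPPFL+ and 11 of 16 in GMP with CMP. In CLP with GMP 12 of 19 remained, without Psmb10, Psmb5, Psma4, Psmc3, Psmc4, Psmd13 and Psmf1. In DN1 with CLP 16 of 17 remained, in DN2 with DN1 2 of 2 and in DN3 with DN2 23 of 23. Without the arrays with Xist signal, which leaves 1 array each of DN1 and DN2, 12 of 17 calls remained in DN1 with CLP and 16 of 23 in DN3 with DN2. Of the 102 calls, 52 had further probe sets for the gene. In 8 calls at least 1 further probe set was clear of the floor and none shared the sign: Psmc4 in CMP with MPPFL+ and in CLP with GMP, Psma1 and Psma3 in GMP with CMP, Psmd9 in DN1 with CLP, and Psma3, Psmb1 and Psme3 in DN3 with DN2.

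The inducible catalytic subunits Psmb8, Psmb9 and Psmb10 were well expressed in every population, and both steps in which more than 1 of them passed were rises. Their mean level was 11.14 ± 0.23 in MPPFL- (SD, n = 5), 11.24 ± 0.09 in MPPFL+, 11.86 ± 0.38 in CMP, 11.49 ± 0.08 in GMP, 11.35 ± 0.21 in CLP, 12.03 ± 0.20 in DN1, 12.06 ± 0.21 in DN2 and 11.81 ± 0.22 in DN3 (n = 3 each). The thymocyte arrays lay between 11.66 and 12.22. All arrays of the bone marrow populations other than CMP lay below that range, from 10.95 to 11.56, and CMP spanned 11.43 to 12.15.

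Psmb8, the inducible counterpart of Psmb5 with chymotrypsin-like activity, read 11.69, 11.35 and 11.72 on the CLP arrays and 12.43, 12.23 and 12.56 on the DN1 arrays. Every DN1 array was above every CLP array, and Psmb8 rose 1.77-fold (log2 0.82 ± 0.23 SE, limma adjusted p = 0.0113). Without CLP replicate 2 the adjusted p was 0.0581, and the call was lost with the random spike-in block. In DN2 it read 12.42, 12.79 and 12.90, its highest population, and in DN3 11.97, 11.98 and 12.56. Neither of those thymic steps passed (0.30 and -0.53, adjusted p = 0.0967 for the latter). A second, dimmer probe set of Psmb8 rose by 1.11 from CLP to DN1 and by 0.93 from DN1 to DN2, and fell by 1.67 from DN2 to DN3 (adjusted p = 0.00164, 0.0239 and 2.48e-05 in a limma fit over all probe sets). The rise into DN1 was thus read by both probe sets, and the later steps passed only with the dimmer one.

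Psmb9, the inducible counterpart of Psmb6, read 11.53, 11.44 and 11.01 in MPPFL+, 11.69, 12.37 and 12.17 in CMP, and 11.37, 11.56 and 11.42 in GMP. The CMP arrays lay above those of both other populations. It was 1.69-fold higher in CMP than in MPPFL+ (0.76 ± 0.19 SE, limma adjusted p = 0.0062) and fell again by 0.63 ± 0.19 in GMP (adjusted p = 0.0221, and up to 0.0903 with single arrays left out). Psmb8 moved with it, from 11.30, 11.15 and 10.95 in MPPFL+ to 11.34, 12.12 and 12.17 in CMP. That rise was 0.74 ± 0.23 (adjusted p = 0.0235, and 0.0933 at the most with single arrays left out). All 3 calls were lost with the random spike-in block and in fits to the compared populations alone. From CLP to DN1 Psmb9 went from 11.65 to 12.13 on average, a difference of 0.47 that did not pass (adjusted p = 0.0772).

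Psmb10, the counterpart of Psmb7, had its lowest level in CLP, at 10.70, 10.60 and 11.14, against 11.62, 11.54 and 11.39 in GMP and 11.55, 11.33 and 11.79 in DN1. The CLP arrays lay below all arrays of both. It was 0.70 ± 0.19 lower in CLP than in GMP (limma adjusted p = 0.00783) and rose 0.75 ± 0.19, or 1.68-fold, into DN1 (adjusted p = 0.00546). Its DN3 arrays, at 11.75, 11.60 and 11.73, formed its highest population, and the difference from DN2 did not pass. Both calls of Psmb10 were lost with the random spike-in block, and that in CLP with GMP also with the 3′ to 5′ gap as a covariate. Without the arrays with Xist signal the differences into DN1 were 0.64 for Psmb8 (limma adjusted p = 0.237) and 0.52 for Psmb10 (adjusted p = 0.23), but that leaves DN1 as 1 array, whose spread is taken from the other populations. The genes shared their pattern over the 26 arrays, as a description: Pearson's r was 0.81 for Psmb8 with Psmb9, 0.60 for Psmb8 with Psmb10 and 0.54 for Psmb9 with Psmb10.

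**Figure D3:**
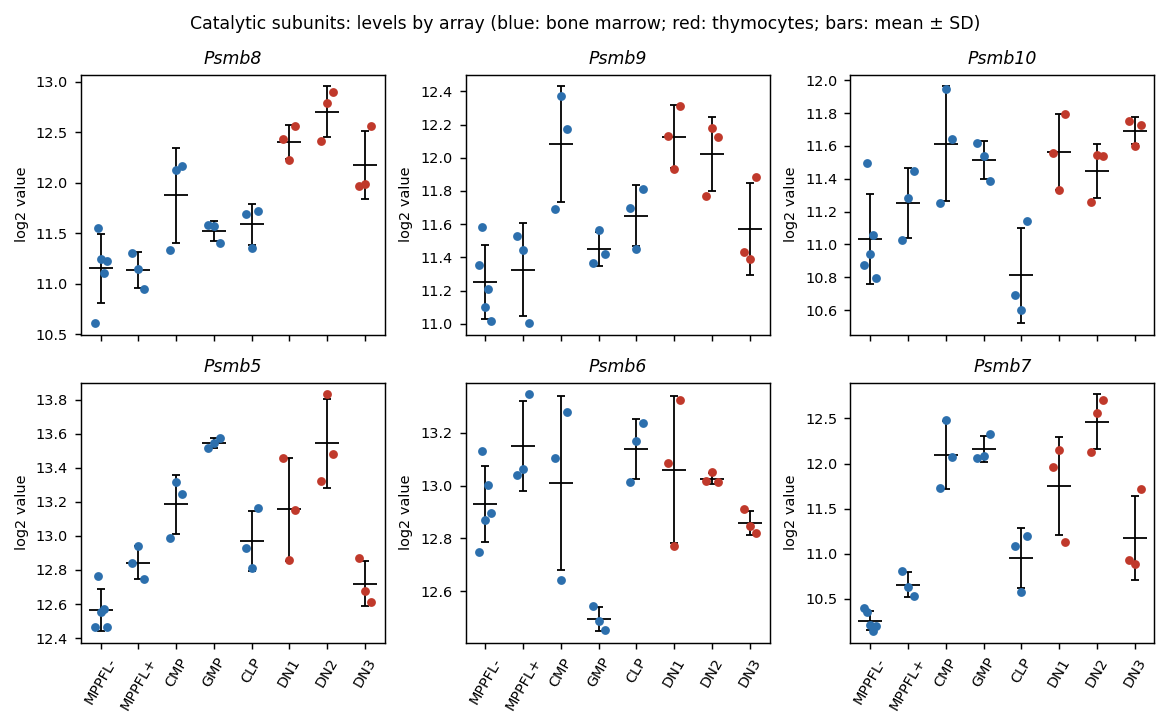
Deposited log2 level of the inducible subunits Psmb8, Psmb9 and Psmb10 and the standard catalytic subunits Psmb5, Psmb6 and Psmb7 on each array, with points for arrays and lines for the mean ± SD of each population, bone marrow in blue and thymocytes in red. Psmb8 is higher in thymocytes than in most bone marrow arrays, Psmb7 swings widest, from 10.15 to 12.70, and Psmb6 stays within 12.45 and 13.35.

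The standard catalytic subunits did not move as a unit. Psmb7, the trypsin-like subunit, had one of the widest ranges of all members, while Psmb6, the caspase-like subunit, ran against both others between GMP and CLP. Over the 26 arrays Psmb5 and Psmb7 were alike (Pearson's r = 0.84). With Psmb6 included, the median pairwise correlation of the 3 genes was -0.17, as a description.

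Psmb7 read 10.40, 10.35, 10.21, 10.15 and 10.20 in MPPFL- and 10.81, 10.63 and 10.53 in MPPFL+, and then 11.73, 12.48 and 12.08 in CMP. The CMP arrays were all higher, and Psmb7 rose 2.71-fold over MPPFL+ (1.44 ± 0.26 SE, limma adjusted p = 3.54e-04). GMP kept a like level (12.06, 12.08 and 12.32), while CLP lay lower at 11.09, 10.58 and 11.20, by 1.20 ± 0.26 (adjusted p = 0.00121). It peaked in DN2 (12.12, 12.56 and 12.70) and fell 2.44-fold to 10.93, 10.89 and 11.72 in DN3 (log2 -1.29 ± 0.26, adjusted p = 5.85e-04). The DN2 and DN3 arrays did not overlap. The difference between CLP and GMP was lost with the random spike-in block, and that between DN3 and DN2 in a fit to those populations alone.

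Psmb5, the chymotrypsin-like subunit, was 13.52, 13.54 and 13.58 in GMP, above the 12.93, 12.81 and 13.16 of CLP. It was 0.58 ± 0.14 lower in CLP (limma adjusted p = 0.00369). From DN2 (13.32, 13.83 and 13.48) to DN3 (12.87, 12.68 and 12.61) it fell 1.77-fold, by 0.82 ± 0.14 (adjusted p = 1.26e-04), with no overlap of arrays. Psmb6 had its lowest level in GMP, at 12.54, 12.49 and 12.46, against 13.10, 12.64 and 13.28 in CMP and 13.01, 13.17 and 13.23 in CLP. GMP was below both, by 0.52 ± 0.14 against CMP (adjusted p = 0.0116, or 0.0645 without CMP replicate 3) and with CLP 0.64 ± 0.14 above it (adjusted p = 0.0014). With the random spike-in block all 3 of these differences from GMP, of Psmb5 and of Psmb6, were lost (adjusted p = 0.113 for Psmb6 in CLP). That of Psmb5 was also lost with the 3′ to 5′ gap as a covariate.

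Because probes differ, a level of 1 gene cannot be set against that of another, but the gap within a pair can be followed across populations. Relative to MPPFL-, the gap of Psmb8 less Psmb5 was -0.61 ± 0.13 in GMP (SD, n = 3), 0.03 ± 0.12 in CLP, and in the thymocytes it was 0.66 ± 0.24 (DN1), 0.57 ± 0.24 (DN2) and 0.87 ± 0.44 (DN3). Every thymocyte array was above every GMP and CLP array. The gap of Psmb9 less Psmb6 was 0.75 ± 0.59 in CMP, 0.63 ± 0.13 in GMP, 0.19 ± 0.21 in CLP and 0.74 ± 0.09 in DN1. The gap of Psmb10 less Psmb7 had a negative mean in every other population. It was lowest in DN2 (-1.79 ± 0.15) and GMP (-1.41 ± 0.26), followed by CMP (-1.25 ± 0.05), DN1 (-0.96 ± 0.76) and CLP (-0.92 ± 0.22). In DN3 it was -0.26 ± 0.44 and in MPPFL+ -0.18 ± 0.35. The 3 pairs therefore did not shift alike, and no test was run on these gaps.

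The 4 non-catalytic beta subunits held the largest single change of any member. Psmb2, a structural subunit of the beta ring, read 9.28, 9.11, 8.66, 8.64 and 8.45 in MPPFL- and 11.35, 11.27 and 10.94 in MPPFL+. The arrays of both populations were more than 1 unit apart, and Psmb2 rose 5.13-fold (2.36 ± 0.43 SE, limma adjusted p = 6.87e-04). It stayed between 10.85 and 11.70 on all CMP, GMP and CLP arrays. In DN1 the arrays split: replicates 1 and 2 read 8.93 and 8.24, and replicate 3, the array with the smallest 3′ to 5′ gap, read 11.29. The fall from CLP was 1.88 ± 0.48 (adjusted p = 0.00582), and without DN1 replicate 3 the difference was -2.78 (adjusted p = 5.32e-07). It was lost with the random spike-in block and in a fit to CLP and DN1 alone (adjusted p up to 0.293). Psmb2 stayed low in DN2, at 8.78, 9.15 and 8.68, and rose 2.88-fold to 10.29, 10.19 and 10.72 in DN3 (adjusted p = 0.0194, and 0.0691 at the most with single arrays left out).

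Psmb3, the neighbour of Psmb2 in the ring, followed the same course at a smaller scale, and their r over 26 arrays was 0.86. It rose by 0.86 ± 0.23 from MPPFL- to MPPFL+ (limma adjusted p = 0.0152), fell by 0.79 ± 0.26 from CLP to DN1 and rose by 0.86 ± 0.26 from DN2 to DN3. Without MPPFL+ replicate 2 or 3, DN2 replicate 3 or DN3 replicate 1, the rise that rests on that array was lost (adjusted p up to 0.0806 and 0.0616), as was the fall into DN1 with single arrays left out (up to 0.176). The rise of Psmb3 into MPPFL+ was also lost with the 3′ to 5′ gap as a covariate and with array numbers as a replicate block. Psmb1 was 0.56 higher in CLP than in GMP and rose by 0.52 into DN3, so 3 of the 4 rose from DN2 to DN3. Psmb4 differed in a single step, 0.53 higher in GMP than in CMP. These calls of Psmb1 and Psmb4 were lost with some single arrays left out (adjusted p up to 0.0759, 0.144 and 0.216 in that order).

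The 8 alpha subunits, which form the gate of the barrel, moved least of the larger groups, with a median range over populations of 0.72 units. The widest ranges among them were those of Psma8 (2.58 units) and Psma4 (1.41). Psma4 read 12.03, 12.26, 12.04, 12.07 and 11.86 in MPPFL- and 10.81, 10.98 and 10.81 in MPPFL+, with no overlap, and fell 2.27-fold (log2 -1.18 ± 0.14 SE, limma adjusted p = 1.04e-05). CLP arrays were also low (10.92, 10.65 and 11.07), and DN1 arrays high again at 12.20, 11.99 and 12.52. That rise was 2.56-fold (1.36 ± 0.16, adjusted p = 3.17e-06). Psma8 read 8.94, 8.04, 8.31, 9.18 and 8.09 in MPPFL- and 7.79, 7.19 and 6.75 in MPPFL+, and fell by 1.27 ± 0.40 (adjusted p = 0.0377). This call was lost without MPPFL- replicate 1 or 4 or MPPFL+ replicate 2 or 3 (up to 0.168). It was also lost with the 3′ to 5′ gap as a covariate, with array numbers as a replicate block and in a fit to those populations alone.

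From DN2 to DN3, 3 alpha subunits fell, Psma1 by 0.86, Psma3 by 0.56 and Psma2 by 0.40 (the last with an adjusted p up to 0.209 with single arrays left out). Psma3 was the tightest of them, at 14.46, 14.56 and 14.51 in DN2 and 13.90, 14.00 and 13.96 in DN3 (± 0.07 SE, limma adjusted p = 1.59e-06). Its other, dimmer probe set did not follow (0.33, adjusted p = 0.992 in the fit over all probe sets). Probe sets disagreed for Psma3 in GMP relative to CMP, where the brightest was 0.24 higher and the mean of its probe sets 0.92 lower, so its direction there depends on the probe set. Psma1 and Psma3 were the 2 of the 8 that passed as higher in GMP than in CMP, and both calls were lost with some single arrays left out (adjusted p up to 0.202 and 0.0793). No alpha subunit passed between CMP and MPPFL+, and 5 of the 8 did not pass between DN2 and DN3.

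The ATPases of the 19S base had the highest median correlation of the role groups with 4 or more genes. All 6 passed the F test, and their median pairwise correlation over 26 arrays was 0.50, against 0.12 over the 43 core, 19S, activator and assembly genes and 0.04 over all genes clear of the floor, given as a description. Their mean level was highest in DN2 (13.19 ± 0.13, SD, n = 3) and GMP (12.99 ± 0.06), followed by DN1 (12.83 ± 0.14). It lay at 12.47 ± 0.06 in MPPFL- (n = 5), 12.42 ± 0.16 in MPPFL+, 12.43 ± 0.18 in CMP, 12.56 ± 0.12 in CLP and 12.52 ± 0.15 in DN3. The DN2 and GMP arrays lay above all arrays of these last 5 populations, which overlapped each other.

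In GMP relative to CMP, 5 of the 6 ATPases were higher: Psmc1 by 0.90, Psmc3 by 0.83, Psmc5 by 0.57, Psmc6 by 0.50 and Psmc2 by 0.50. CMP replicate 1 was the lowest CMP array for Psmc1, Psmc3, Psmc5 and Psmc6, and with single arrays left out the limma adjusted p reached 0.219 for Psmc3, 0.153 for Psmc5 and 0.0854 for Psmc6. Quantile normalization left the calls of Psmc1 and Psmc2, and the random spike-in block and the fit to GMP and CMP alone that of Psmc2 only (adjusted p up to 0.17 for Psmc1). Relative to GMP, CLP was lower for 4 of the 6, Psmc5 by 1.13, Psmc1 by 0.95, Psmc3 by 0.87 and Psmc2 by 0.73, of which Psmc5 and Psmc2 passed with the random spike-in block. Psmc4 went the other way, 0.89 higher in CLP (adjusted p = 0.0131, or 0.0621 without CLP replicate 1). In CMP, Psmc4 was 0.88 below MPPFL+ (adjusted p up to 0.118 with single arrays left out) and Psmc5 0.92 above it, a call lost in a fit to those populations alone. A second probe set of Psmc4 did not share either direction, at -0.33 in CLP with GMP and 0.37 in CMP with MPPFL+ (neither passed).

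Psmc2 changed little in size but with very tight replicates. It read 14.54, 14.61 and 14.72 in GMP, 13.96, 13.78 and 13.94 in CLP, 14.24, 14.31 and 14.18 in DN1, 14.45, 14.35 and 14.42 in DN2 and 13.53, 13.49 and 13.44 in DN3. The fall from DN2 to DN3 was 1.89-fold (log2 -0.92 ± 0.07 SE, limma adjusted p = 3.15e-09), the smallest adjusted p of any member in any comparison. DN3 was its lowest population, below every other array. Psmc1 fell further in that step, from 12.68, 12.97 and 13.14 to 11.66, 11.73 and 11.34, or 2.55-fold (log2 -1.35 ± 0.21, adjusted p = 4.85e-05). Psmc6 fell by 0.66, and all 6 ATPases had a negative difference there, 3 of which passed. From DN1 to DN2 all 6 differences were positive, up to 0.63, and none passed.

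Among the 11 non-ATPase subunits, Psmd1, the scaffold that holds ubiquitin receptors in the base, had the largest change. It read 11.20, 11.12 and 11.27 in MPPFL+ and 12.23, 12.61 and 12.74 in CMP, a 2.52-fold rise (1.33 ± 0.20 SE, limma adjusted p = 5.61e-05). CLP arrays read 11.50, 10.94 and 11.34 and DN1 arrays 13.02, 12.89 and 12.40, a 2.85-fold rise (1.51 ± 0.20, adjusted p = 1.02e-05). It was highest in DN2, at 13.16, 13.46 and 13.47, and fell 4.34-fold to 10.97, 11.02 and 11.75 in DN3 (log2 -2.12 ± 0.20, adjusted p = 7.66e-08). In none of these steps did the arrays overlap, and all 3 calls passed under every alternative tried.

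Psmd2, the other large scaffold of the base, went in other directions. It was highest in GMP (13.18, 12.97 and 13.07) and lowest in DN1 (11.02, 10.88 and 11.43). It fell 2.13-fold from CLP to DN1 (log2 -1.09 ± 0.18 SE, limma adjusted p = 1.45e-04), where Psmd1 rose, and rose by 0.80 ± 0.18 from DN2 to DN3 (adjusted p = 0.0021), where Psmd1 fell. In DN2 it read 11.15, 11.53 and 11.86 and in DN3 12.38, 12.50 and 12.06, with no overlap. That rise was lost with the random spike-in block and in a fit to DN2 and DN3 alone. Psmd2 was also 0.71 higher in GMP than in CMP, a call lost without CMP replicate 1 (adjusted p = 0.0573) and with the random spike-in block.

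Psmd7, which pairs with the deubiquitinase Psmd14 in the lid, read 9.90, 9.93, 9.50, 9.56 and 9.37 in MPPFL-, 8.46, 8.60 and 8.83 in MPPFL+, 9.08, 10.55 and 10.05 in CMP, 10.61, 10.63 and 10.51 in GMP and 9.001, 8.32 and 8.63 in CLP. It was 3.81-fold lower in CLP than in GMP (log2 -1.93 ± 0.31 SE, limma adjusted p = 7.35e-05) and 2.40-fold higher in CMP than in MPPFL+ (adjusted p = 0.00527, lost with the random spike-in block). Its fall of 1.02 from MPPFL- to MPPFL+ (adjusted p = 0.0154) was lost without MPPFL+ replicate 1 or 2 (up to 0.0736). MPPFL+ and CLP were thus its low populations, and no thymic step passed. Psmd14 itself fell by 0.78 ± 0.11 from DN2 to DN3 (adjusted p = 2.14e-05).

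Psmd13, a lid subunit, read 10.27, 10.34, 10.13, 10.36 and 10.21 in MPPFL- and 11.08, 11.07 and 10.65 in MPPFL+, and rose by 0.67 ± 0.16 SE (limma adjusted p = 0.00604). A second probe set rose by 0.53, and another, dimmer one fell by 0.96 (adjusted p = 0.00518 and 0.0234 in the fit over all probe sets), so its direction depends on the probe set. In GMP relative to CMP (0.58 higher) and CLP relative to GMP (0.66 lower) that dimmer probe set was again opposite, at -2.29 and 2.33, and the mean over its probe sets was -0.03 and 0.04. Psmd3, another lid subunit, was highest in DN3, at 10.77, 10.90 and 11.05, against 10.39, 10.49 and 10.25 in DN2. It rose by 0.53 ± 0.13 in that step (adjusted p = 0.00275, lost without the arrays with Xist signal), and was 0.50 ± 0.13 lower in GMP than in CMP (adjusted p = 0.00695, lost with the random spike-in block). Psmd6 was the 1 non-ATPase that passed from DN1 (13.07, 13.26 and 13.02) to DN2 (14.32, 13.51 and 13.57). It rose by 0.68 ± 0.20 (adjusted p = 0.0416), a call lost without DN1 replicate 1 or 3 or DN2 replicate 1 (up to 0.199).

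**Figure D4:**
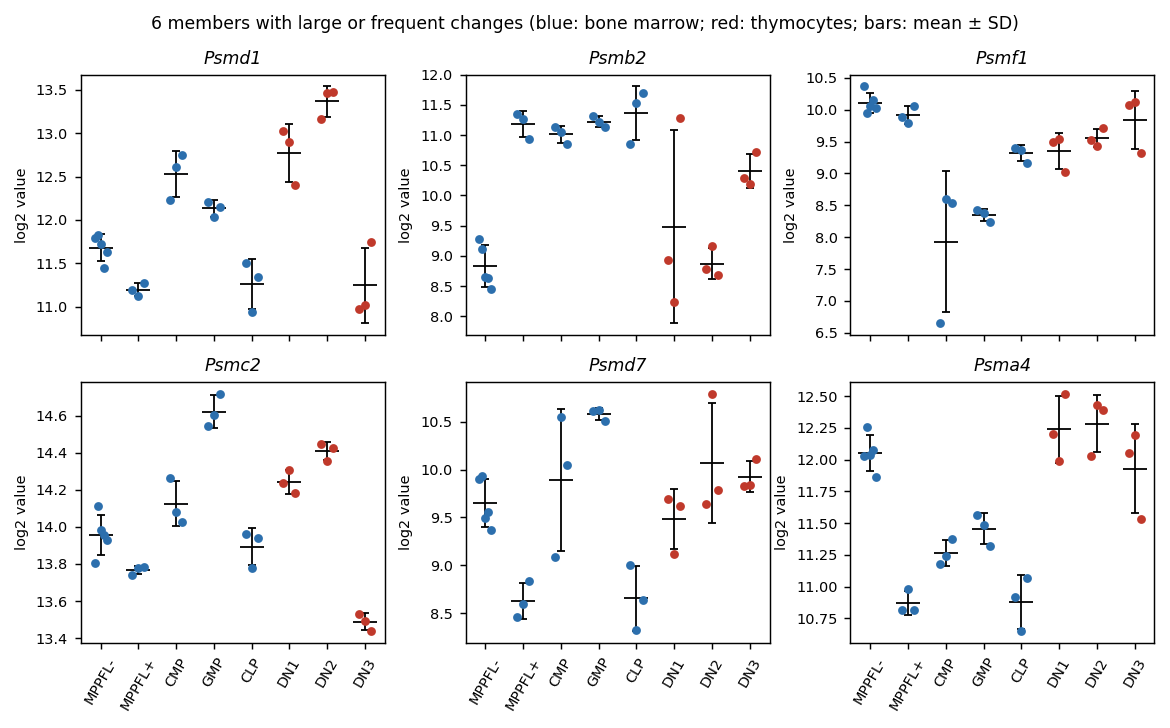
Deposited log2 level of Psmd1, Psmb2, Psmf1, Psmc2, Psmd7 and Psma4 on each array, with points for arrays and lines for the mean ± SD of each population, bone marrow in blue and thymocytes in red. Psmd1 peaks in DN2 and drops in DN3, Psmb2 is low in MPPFL- and DN2 with 1 high DN1 array, and Psmf1 drops from MPPFL+ to CMP.

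The activators and the inhibitor bind the ends of the core in place of, or against, the 19S particle. Psmf1, the inhibitor known as PI31, read 9.89, 9.79 and 10.06 in MPPFL+ and 6.65, 8.59 and 8.54 in CMP, and GMP stayed low at 8.43, 8.38 and 8.23. CMP arrays were all below MPPFL+ arrays, and Psmf1 was 3.97-fold lower in CMP (log2 -1.99 ± 0.34 SE, limma adjusted p = 2.43e-04). CMP replicate 1 was far below the others. With single arrays left out the adjusted p stayed at or below 0.00147, and in a fit to MPPFL+ and CMP alone the call was lost (adjusted p = 0.168). Psmf1 was 0.97 ± 0.34 higher in CLP than in GMP (adjusted p = 0.0402), a call lost with any 1 of the 6 arrays left out (up to 0.107).

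Psme1, a subunit of the interferon-inducible activator, was lowest in GMP (11.93, 11.87 and 11.85) and highest in DN3 (12.60, 12.68 and 12.91). It was 0.65 ± 0.20 SE higher in CLP than in GMP (limma adjusted p = 0.0206) and rose by 0.61 ± 0.20 from DN2 to DN3 (adjusted p = 0.0279), and each call was lost with some single array left out (up to 0.0624 and 0.105). Psme3, the nuclear activator, fell by 1.03 ± 0.26 from DN2 to DN3 (adjusted p = 0.00378), and a dimmer probe set was 0.46 higher without passing. The call was lost with the mean of its probe sets, with the random spike-in block and without the arrays with Xist signal. Psme4, a large activator of nuclei and testis, fell by 0.62 ± 0.13 from CLP (11.74, 11.71 and 11.70) to DN1 (11.27, 11.04 and 10.99), with no overlap (adjusted p = 0.00121, lost with the mean of its probe sets and with the random spike-in block).

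Assembly chaperones guide the building of the rings and leave the finished particle. Psmd10, the ATPase chaperone also called gankyrin, read 9.56, 9.60, 9.45, 9.50 and 9.39 in MPPFL-, 8.61, 8.92 and 8.58 in MPPFL+, 8.74, 8.38 and 8.99 in CLP and 10.14, 9.78 and 10.62 in DN1. It fell by 0.80 ± 0.16 SE into MPPFL+ (limma adjusted p = 0.0018) and rose 2.79-fold from CLP to DN1 (1.48 ± 0.18, adjusted p = 5.1e-06). DN2 kept that level (10.01, 10.45 and 10.34) and DN3 was lower (9.18, 9.20 and 9.43), by 0.998 ± 0.18 (adjusted p = 2.43e-04). The arrays did not overlap in any of these 3 steps.

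Psmd9, a chaperone of the same base, was lower in DN1 by its brightest probe set. It read 8.27, 8.07 and 8.17 in CLP and 6.81, 6.43 and 7.54 in DN1, a fall of 1.24 ± 0.26 SE (limma adjusted p = 0.00109). Of its other probe sets, 1 was 1.14 higher in DN1 without passing and 1 did not differ at all (0), and with the mean of the probe sets the difference was -0.03 (adjusted p = 1), so the fall rests on 1 probe set. In DN2 it read 7.38, 8.23 and 8.02, a rise of 0.94 ± 0.26 (adjusted p = 0.0265) that was lost without DN1 replicate 1 or 2 or DN2 replicate 2 or 3 (up to 0.13). Psmd5, also a chaperone of the base, was 0.86 ± 0.28 lower in CMP than in MPPFL+ (adjusted p = 0.033), a call lost without CMP replicate 1 or any 1 MPPFL+ array (up to 0.137). Psmg4, a chaperone of the alpha ring, read 9.97, 8.98 and 8.91 in CMP and 7.44, 7.47 and 7.25 in GMP, with no overlap. It was 3.73-fold lower in GMP (log2 -1.90 ± 0.39, adjusted p = 0.00146) and 1.51 ± 0.39 higher in DN3 than in DN2 (adjusted p = 0.00548). Both calls were lost with the random spike-in block (adjusted p = 0.0705 and 0.0734). Its partners Psmg1, Psmg2 and Psmg3 passed in no comparison.

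Psmb11 was at or near the floor throughout, as were Foxn1 and Krt14, markers of thymic epithelium. Its DN3 arrays read 2.17, 2.27 and 2.23 against 2.17 on all others but 1 (2.18 on DN1 replicate 3), and that difference of 0.05 ± 0.01 SE passed the test (limma adjusted p = 0.00762, or 0.0505 without DN3 replicate 2) at a level with no practical signal. Of the 10 epithelial markers, Epcam was higher in DN3 (10.61, against 2.17 to 3.16 in the other populations), as was Cldn4 (5.66, against 2.17 to 2.30). The mean over the other 8 was 2.91 in DN3, against 2.91 to 3.53 in the other populations, and Prss16 and Ccl25 were lower in DN3 than in DN2. The mean over all 10 was 3.96 in DN3, against 2.77 to 3.26. The part of other cells in the levels above was not tested. Psmc3ip, a partner in meiotic recombination that matches the family by its symbol only, read 11.77, 11.83 and 11.60 in DN2 and 9.64, 9.80 and 9.79 in DN3, a 3.96-fold fall (log2 -1.99 ± 0.24, adjusted p = 2.26e-06). Psme3ip1, which binds Psme3, rose by 0.56 in the same step (adjusted p = 0.0454, up to 0.182 with single arrays left out).

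Genes that work with the proteasome but do not carry its symbols were taken as 3 lists. Of 12 partners, 1 rose and none fell from DN1 to DN2, and 2 rose and 5 fell from DN2 to DN3, against 6.06% and 6.54% of the genes clear of the floor in the first step and 26.7% and 23.4% in the second. Usp14, a deubiquitinase bound to the 19S particle, rose by 1.27 into DN2 (limma adjusted p = 0.0147, up to 0.0833 with single arrays left out, and lost in a fit to DN1 and DN2 alone) and fell by 2.13 into DN3 (adjusted p = 2.59e-05). Uchl5, the other such deubiquitinase, fell by 1.87 into DN3 (adjusted p = 5.88e-07). Sem1, a small lid subunit, fell by 0.75 into MPPFL+ and by 0.56 into DN3 and passed in all comparisons other than CLP with MPPFL+ and DN2 with DN1. Nfe2l1, the factor known for inducing proteasome genes after loss of activity, rose by 0.90 from MPPFL- to MPPFL+ (adjusted p = 4.42e-04), a step in which 3 members rose and 7 fell.

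Of the 7 genes of ubiquitin supply and shuttling, 4 rose from DN1 to DN2, the segregase partners Nploc4 (1.10) and Ufd1 (0.64) and the shuttles Ubqln2 (0.91) and Ubqln4 (0.67), and none fell, against 6.06% and 6.54% of the genes clear of the floor. Nploc4 was the 1 of these that passed with each array left out in turn, and all 4 calls were lost in a fit to DN1 and DN2 alone. Without the arrays with Xist signal, which sets 1 DN1 array against 1 DN2 array, the difference of Ubqln4 was -0.0016. From DN2 to DN3, 4 of the 7 fell, led by Ubqln2 (-1.35, limma adjusted p = 9.92e-05) and Ufd1 (-0.86), and Vcp, the segregase itself, rose by 0.62 (adjusted p = 0.035, lost with the mean of its probe sets and with the random spike-in block). Of all genes clear of the floor 26.7% rose and 23.4% fell in that step.

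Of the 13 genes of class I antigen processing, 2 rose and 4 fell from CLP to DN1, the step in which Psmb8 and Psmb10 rose. These are shares close to those of the genes clear of the floor, 12.8% and 31.6%. Tap1, whose start lies 225 bases from that of Psmb9, read 11.35, 11.51 and 11.07 in CLP and 9.87, 9.58 and 10.01 in DN1, with no overlap. It fell by 1.49 ± 0.19 SE from CLP to DN1 (limma adjusted p = 7.66e-06), while its neighbour Psmb9 was 0.47 higher without passing. From DN2 (9.32, 9.42 and 9.12) to DN3 (10.64, 10.48 and 9.89) Tap1 rose by 1.05 (adjusted p = 2.22e-04), and Tap2, its partner, by 1.31 (adjusted p = 0.00212, lost with the random spike-in block). Tap2 had fallen by 1.08 into DN1 (adjusted p = 0.0112, or 0.0574 without DN1 replicate 2, and lost with the random spike-in block). Nlrc5, a transactivator of class I genes, read 8.69, 9.05 and 8.67 in CMP, 6.32, 7.13 and 6.71 in GMP and 9.18, 9.45 and 9.02 in CLP. GMP was below all other arrays of the series, by 2.09 against CMP (adjusted p = 9.25e-06), and CLP was 2.50 above it (adjusted p = 4.33e-07). In MPPFL+ relative to MPPFL-, 5 of the 13 rose and none fell, against 17.4% and 8.29% of the genes clear of the floor, among them Pdia3 (1.62), Tap2 (1.23) and Tap1 (0.70), while none of Psmb8, Psmb9 and Psmb10 passed.

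**Figure D5:**
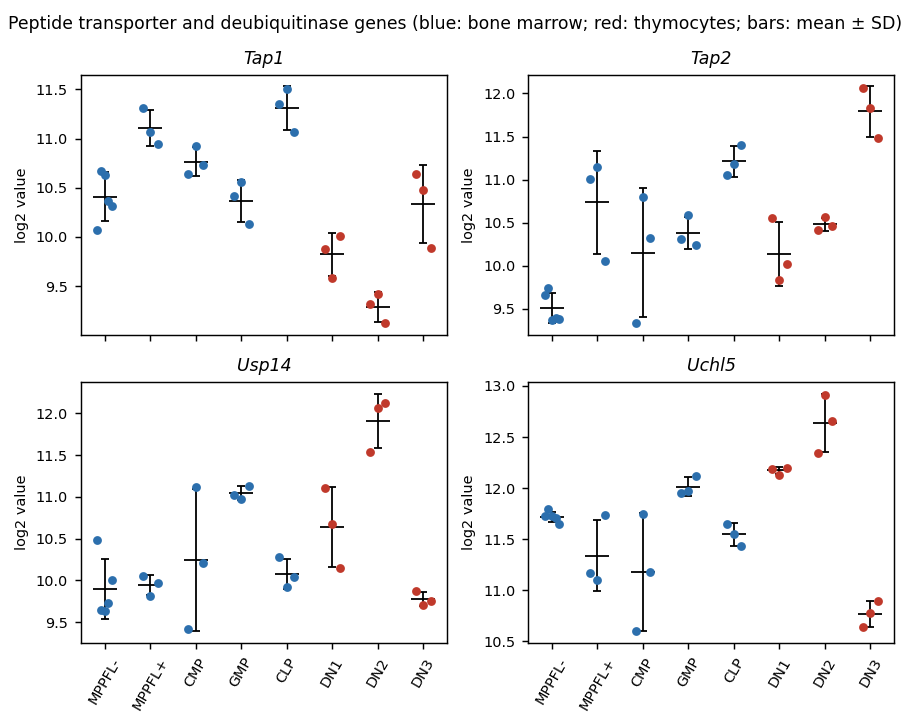
Deposited log2 level of Tap1, Tap2, Usp14 and Uchl5 on each array, with points for arrays and lines for the mean ± SD of each population, bone marrow in blue and thymocytes in red. Tap1 is lowest in DN2 and highest in MPPFL+ and CLP, and Usp14 and Uchl5 drop from DN2 to DN3.

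Members were compared with each other and with non-member genes by Pearson's r over the 26 arrays, as a description in which all points share arrays, scaling and populations. The median r between pairs of the 43 core, 19S, activator and assembly genes was 0.12. It was 0.18 among alpha subunits, 0.17 among non-ATPases and 0.20 among assembly chaperones, and near or below 0 among catalytic and non-catalytic beta subunits. The pairs most alike were Psmb7 with Psmc5 (0.92), Psma2 with Psmd12 (0.90) and Psmb2 with Psmb3 (0.86), and the least alike were Psma5 and Psmb7 (-0.78). Among 10319 other genes clear of the floor, those most like the mean of the role groups without the inducible subunits were Grhpr (0.89), Nans (0.89), Ahsa1 (0.86), Timm17a (0.85) and Prps1 (0.85). Those most like the mean of Psmb8, Psmb9 and Psmb10 were Anapc16 (0.90), Scin (0.88), Pdf (0.86), Dock8 (0.85) and Crcp (0.85).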

How the data were processed

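The samples were 26 Affymetrix arrays of total RNA from 8 mouse populations. The values were the deposited log2 table of the series, 45101 probe sets, whose background correction and normalization are not given in the sources used here. A floor at 2.17 held 30.2 to 37.1% of the values of each array. RNA was extracted with Trizol and labelled with biotin, per the labels' protocols. Platform annotation gave 34958 probe sets 1 gene, 932 several and 9211 none, and only the first were used.

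Values were tested in R 4.3.3 with limma 3.58.1 in 1 linear model of all 26 arrays that holds the population alone (18 residual degrees of freedom), Benjamini-Hochberg adjustment over 18194 genes in each of 8 comparisons, two-sided, at an adjusted p under 0.05. The script was tested on simulated data. The members, lists and rules were chosen with earlier results of these data known. Named genes were the catalytic subunits, Psme1 and Psmb11 everywhere, up to 3 other members with the largest rise and fall per comparison, the 2 members of each role with the smallest F test p, and up to 3 called genes per pathway list; further names spell out small counts and were chosen after their values were seen. Same-numbered arrays of different populations had a median correlation of deviations of -0.03 over 84 pairs, of which 9 were over 0.1, so numbers were not taken to pair arrays. No pair of arrays held identical values. Alternatives were quantile normalization, the mean of a gene's probe sets, genes clear of the floor only, an intensity trend, a replicate block, arrays of like spike-in level as a random block, the 3′ to 5′ gap as a covariate, leaving out the arrays with Xist signal, fitting the compared populations only and leaving out each array. The number of arrays limits the precision.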

Additional observations from a re-analysis of the deposited data

Results flagged for a closer look

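Among the 5 MPPFL- arrays, 3 of 48 members tested had 1 array farther from the others than Dixon's criterion allows, a share of flags that chance gives at about 1 in 20. Psma3 read 14.39 on replicate 2, where the others read 14.24 to 14.28. Psmd11 read 12.28 on replicate 1, where the others read 12.49 to 12.57. Psme4 read 11.34 on replicate 1, where the others read 11.62 to 11.66. None of these genes passed in the comparison of MPPFL+ with MPPFL-.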

How the results depend on the processing

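Of 2887 recomputed values of calls for members and pathway genes, 2270 passed in the same direction. Reversed values came with a gene's probe sets averaged: Rad23b in MPPFL+ with MPPFL- (-0.46), B2m in CMP with MPPFL+ (0.078), Psma3 and Psmd13 in GMP with CMP (-0.92 and -0.031), Psmd13 and Erap1 in CLP with GMP (0.042 and 0.17), and Psma6, Ubqln1 and Tapbp in DN1 with CLP (0.074, -0.043 and -0.57). Ubqln4 in DN2 with DN1 was at -0.0016 without the arrays with Xist signal, 1 array against 1. The cause was not tested. With array numbers as a replicate block, counts of called members were 5, 13, 13, 0, 18, 13, 1 and 21, in the order of comparisons used above, against 10, 15, 16, 0, 19, 17, 2 and 23. With the random spike-in block they were 12, 6, 1, 0, 3, 4, 6 and 12, and 26 rather than 43 for the F test. Fits to the compared populations only gave 13, 2, 3, 1, 25, 7, 0 and 15. Quantile normalization gave 7 for GMP with CMP and 1 for DN2 with DN1. The 3′ to 5′ covariate gave 6 for MPPFL+ with MPPFL- and 1 for CLP with MPPFL+. Averaged probe sets gave 5 for DN2 with DN1, and 1 was left there without the arrays with Xist signal. Leaving out single arrays gave 4 to 10, 9 to 15, 9 to 18, 0 to 0, 14 to 17, 10 to 20, 1 to 3 and 18 to 24 members, and 16 to 22 members highest in DN2 against 19. Counts moved over 1.5 times without MPPFL+ replicate 1 (6) or 2 (4) in the first comparison and replicate 3 (9) in the second, CMP replicate 1 (9) and GMP replicates 1 and 3 (10 each) in GMP with CMP, CLP replicate 2 (10) in DN1 with CLP, and DN1 replicate 1 or any DN2 array (1) in DN2 with DN1. Values near the floor carry no order.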
